A study of Mus musculus with 2 samples.

Results

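The chemokine ligands that myeloid cells of the spleen express were examined as a group of 10 genes, Ccl3, Ccl4, Ccl5, Ccl6, Ccl9, Ccl17, Ccl22, Cxcl2, Cxcl9 and Cxcl16. They were selected by gene symbol, and all 10 of them were found among the 26124 genes of the tables. Spleen cells had been sequenced one by one in droplets (10x Genomics, with a unique molecular identifier, UMI, on each captured transcript) from 1 wild-type mouse and 1 mouse with sickle cell disease (SCD). Both suspensions had been depleted with magnetic beads so that dendritic cells (DCs) were enriched. Both mice were untreated, 12 to 16 weeks old and, by their stated genotype, homozygous for Hbatm1Paz, which should remove mouse alpha globin. The wild-type mouse was not free of these alleles: it was heterozygous for Hbbtm1Tow, the targeted mouse beta globin locus, hemizygous for Tg(HBA-HBBs)41Paz, a human globin transgene with the sickle beta chain, and did not sickle. The SCD mouse was stated to be homozygous for Hbbtm1Tow and for the transgene. Mouse globin transcripts were still counted, Hba-a1 in 87.4% of wild-type and 88.9% of SCD erythroid-like cells, and Hbb-bs in 68.4% and 50.7%. Whether these counts come from the targeted alleles was not tested. Strain background is mixed in this model, and the comparison asks how chemokine transcripts of spleen myeloid cells differ under chronic hemolysis. Each group was 1 animal, so none of the differences has been checked in a second animal and no test across animals exists. Intervals given in brackets are 95% intervals of counting error only (exact Poisson for counts, exact binomial for shares), and PCR or capture differences between the libraries are not in them.

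Chemokines are small secreted proteins that bind G protein-coupled receptors and direct the movement of leukocytes. Ccl3, Ccl4 and Ccl5 are inflammatory chemokines (Ccl3 and Ccl5 bind CCR1), and Ccl6 and Ccl9 are rodent CCR1 ligands. Ccl17 and Ccl22 act on CCR4 of T cells, Cxcl2 recruits neutrophils through CXCR2, Cxcl9 is an interferon gamma-induced ligand of CXCR3, and Cxcl16 is a membrane-anchored ligand of CXCR6.

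In the mouse annotation (GENCODE, GRCm38) 5 of the members lie together on chromosome 11, in the order Ccl5, Ccl9, Ccl6, Ccl3 and Ccl4, at chr11:83525778-83664683. Ccl9 and Ccl6 are 9245 bp apart, and Ccl3 and Ccl4 13228 bp. Cxcl16 stands alone at chr11:70453983-70459984. Cxcl2 (chr5:90903871-90905938) and Cxcl9 (chr5:92321347-92328079) lie on chromosome 5, and Ccl22 (chr8:94745590-94751699) and Ccl17 (chr8:94810453-94812036) on chromosome 8. RefSeq promoter sequences (GRCm38.p6) were matched for 7 of the 10 members, and Ccl4, Ccl5 and Cxcl16 were without an entry. The 120 bases before the start are shown, 5′ to 3′ on the gene's strand, for Cxcl2 and Ccl3, which were found together in some mature neutrophils, and for the neighbours Ccl6 and Ccl9, whose levels by cell type differed. Capitals mark matches to an NF-kB-type motif.
Cxcl2, plus strand, chr5:90903779-90903898: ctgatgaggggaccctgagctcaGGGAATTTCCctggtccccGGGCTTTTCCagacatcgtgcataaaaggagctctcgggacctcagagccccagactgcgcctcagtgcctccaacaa
Ccl3, minus strand, chr11:83649379-83649498: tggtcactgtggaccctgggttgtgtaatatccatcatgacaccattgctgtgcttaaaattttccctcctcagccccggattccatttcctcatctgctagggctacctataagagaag
Ccl6, minus strand, chr11:83593088-83593207: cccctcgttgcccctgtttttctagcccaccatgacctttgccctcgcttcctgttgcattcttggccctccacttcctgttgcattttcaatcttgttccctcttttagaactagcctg
Ccl9, minus strand, chr11:83578637-83578756: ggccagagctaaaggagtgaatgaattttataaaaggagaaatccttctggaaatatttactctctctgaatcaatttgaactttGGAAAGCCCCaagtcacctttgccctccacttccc

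In the 250 bases before the start, on both strands, the NF-kB-type motif searched, GGG and TTTCC with any 2 bases between them, was found at 2 places in Cxcl2, 97 to 88 and 78 to 69 bases before the start, and once in Ccl9, 35 to 26 bases before it on the opposite strand. It was found in 464 of 32851 RefSeq promoters (1.41%). A GAS-type TTCNNNGAA, present in 7.02% of promoters, was found in Ccl17 alone of the 7, 99 to 91 bases before the start. An ETS-type AGGAAGT (7.69% of promoters) was found in Ccl6, on the opposite strand, 48 to 42 bases before the start. TATAAA (12.4% of promoters) was found in Cxcl9 and Ccl9, where matches on both strands overlapped each other, and TTGCNNAA, a C/EBP-type motif of 9.56% of promoters, in none of the 7. The longest run shared by the Ccl6 and Ccl9 promoters was gccctccacttcc, 13 bases. These matches are letters in a window and were not tested as binding sites.

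The wild-type library held 10845 cells with a median of 4991 UMIs and the SCD library 13447 cells with a median of 8596. After the filters, 9423 and 10635 cells were kept, with 60845405 and 99608356 UMIs. The libraries shared 88 cell barcodes, 22 of them among kept cells, and called doublets (358 and 196 of the kept cells) were kept in. Cell types were rebuilt here from marker genes, without chemokine genes in the clustering, so differences from the study's own types may come from the naming. Neutrophils were 46.2% of wild-type and 67.3% of SCD cells, monocytes 11.0% and 10.5%, conventional DCs 28.1% and 6.72%, plasmacytoid DCs (pDCs) 8.69% and 6.02%, and red pulp macrophages 3.09% and 1.47%. There were 491 and 3981 immature and 3866 and 3175 mature neutrophils. The stage was set per cell by whether UMIs of early and intermediate granule genes exceeded those of late genes, so it is a range and not a type, and 1.70% of wild-type and 9.68% of SCD neutrophils lay within 2-fold of the boundary. Levels below are UMIs per 1000000 UMIs of the cell type (CPM), with SCD set against wild-type. Log2 ratios include a pseudocount of 5 CPM, which draws the ratios of low genes towards 0.

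Each member had a restricted pattern over the cell types. Ccl6 was carried by mature neutrophils and monocytes, and Ccl9 by monocytes. Ccl3, Ccl4 and Cxcl2 lay in few mature neutrophils, and Ccl3 also in SCD monocytes. Ccl5, Ccl22 and Cxcl16 were carried by mature DCs, and Cxcl9 by cDC1s. Ccl17 was barely detected. Summed over all kept cells, 9 members had a lower level in the SCD library and Ccl9 a higher one. The share of all genes lower to any degree was not counted, and their median log2 ratio was itself below 0. The log2 ratio of Ccl17 ran from -0.91 to 0.16 under other processing choices. Nothing was therefore read from this count. With a minimum of 50 CPM and 20 UMIs in 1 of the libraries, 4 of the 10 members entered the comparison of all kept cells (Ccl5, Ccl6, Ccl9 and Cxcl16). Of these, 2 were at least 2-fold lower (Ccl5 and Cxcl16), where 14.2% of 3327 genes were, and 0 were at least 2-fold higher, where 3.64% of genes were. Their median log2 ratio was -1.49, and that of all genes -0.38.

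**Figure D1:**
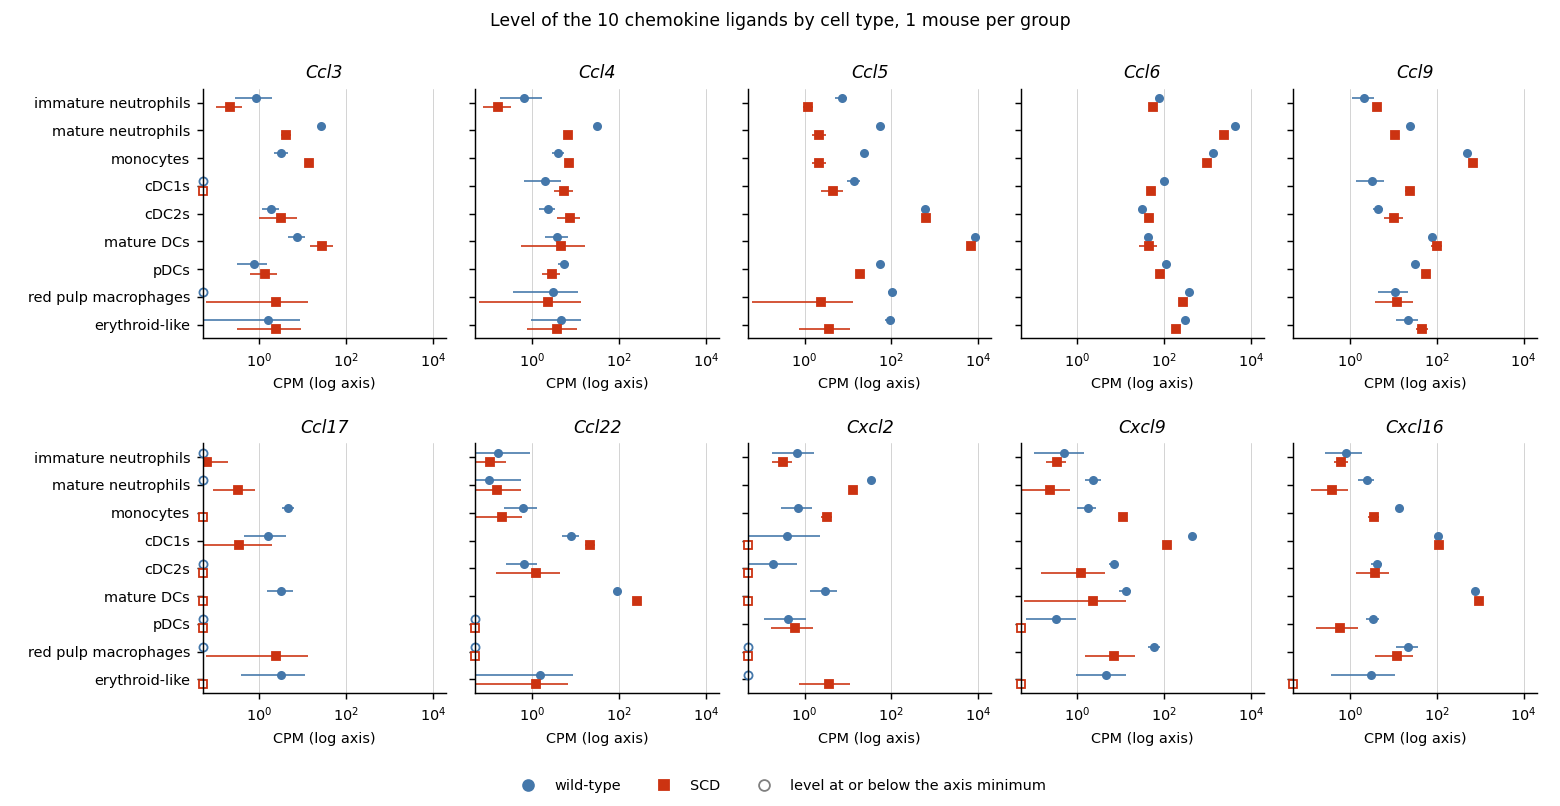
Level of each of the 10 chemokine ligands (CPM, log axis) in 9 cell types of the wild-type (circles) and SCD (squares) mouse. Bars are 95% Poisson intervals of counting error, and open symbols stand for levels at or below the left end of the axis. Ccl6 is highest in mature neutrophils (4357 and 2342), Ccl9 in monocytes (495 and 691) and Ccl5 in mature DCs (8383 and 6632).

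Because the cell type mix differed between the libraries, the whole-suspension levels were recomputed with the mix or the levels of the other library. Ccl5 stood at 672 CPM (665 to 678) in wild-type and 56.0 CPM (54.6 to 57.5) in SCD, 12.0-fold lower. With wild-type levels in each cell type and the SCD mix, it would be 7.08-fold lower, and with SCD levels and the wild-type mix 1.35-fold lower. Cxcl16 was 5.44-fold lower (56.0 and 10.3 CPM), and the mix by itself gave 4.57-fold, whereas SCD levels with the wild-type mix gave a value 1.09-fold higher than in wild-type. In both cases the wild-type level rested on mature DCs, which held 5.13% of wild-type and 0.429% of SCD UMIs.

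Ccl6 and Cxcl9 differed otherwise. Ccl6 was at 1027 (1019 to 1035) and 516 (512 to 521) CPM, 1.99-fold lower, with 1.21-fold from the mix by itself and 1.65-fold from the levels. Cxcl9 was at 35.4 and 5.50 CPM, 6.43-fold lower, with 1.93-fold from the mix and 4.48-fold from the levels. Ccl22 had the opposite signs: 2.81-fold lower as observed (5.75 and 2.05 CPM), 5.93-fold lower from the mix, and 2.68-fold higher from the levels. Ccl9, at 115 and 143 CPM, was 1.24-fold higher as observed and 1.44-fold higher from the levels. Ccl3 was at 6.56 and 3.64 CPM, Ccl4 at 8.79 and 2.95, and Cxcl2 at 5.95 and 2.36. The mix and level values of a gene do not multiply to the observed one, since the SCD levels are weighted differently in each.

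**Figure D2:**
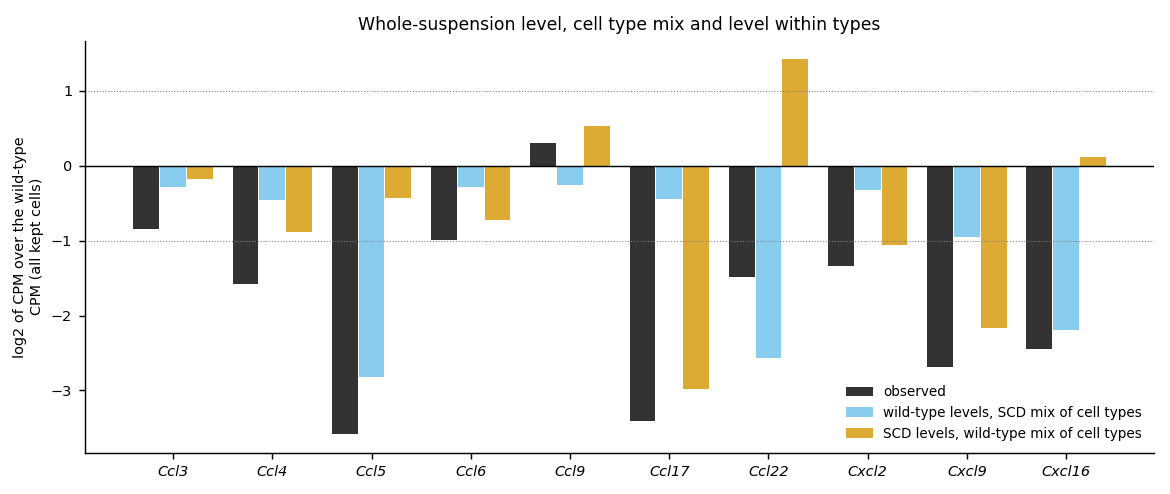
Log2 of the level in all kept cells relative to the wild-type library for the 10 members: as observed in SCD, with wild-type levels and the SCD mix of cell types, and with SCD levels and the wild-type mix. Bars below 0 are lower than wild-type, and dotted lines mark 2-fold. For Ccl22 the bar for SCD levels points up (2.68-fold) while the bar for the mix points down (5.93-fold).

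Ccl6, a CCR1 ligand, was highest in mature neutrophils. There it stood at 4357 CPM in wild-type (4316 to 4399, from 42775 UMIs) and 2342 in SCD (2316 to 2369, from 29706 UMIs), 1.86-fold lower (1.83 to 1.89). Immature neutrophils were far below, at 78.2 and 54.5 CPM. Monocytes followed mature neutrophils, at 1358 (1335 to 1381) and 975 (960 to 991) CPM. After each cell was thinned to 1000 UMIs, Ccl6 was found in 90.0% of wild-type and 75.4% of SCD mature neutrophils. Of all Ccl6 UMIs, mature neutrophils held 68.5% in wild-type and 57.7% in SCD, and monocytes 21.3% and 28.1%. Over all neutrophils Ccl6 was 5.06-fold lower in SCD (2726 and 539 CPM, log2 ratio -2.33), a value that moves with the share of immature cells. It was the 1 member that passed the minimum in neutrophils, and it was at least 2-fold lower, as were 19.5% of 2486 genes, while 1.69% were at least 2-fold higher. The median log2 ratio of all genes was -0.45 in mature neutrophils, and with each library scaled by the median ratio of its genes the log2 ratio of Ccl6 there was -0.43 in place of -0.89.

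Neutrophils of the 2 libraries also fell into different clusters. A cluster called c0, led by Il1b, Dusp1, Fos and Csf3r, held 3660 wild-type neutrophils (84.0%) and 507 SCD neutrophils (7.08%), all of the mature stage. Clusters c1 (led by Thbs1 and Mmp8), c2 (Retnlg and Prok2), c4 (Ifitm1 and Wfdc17) and c5 (Orm1, with Camp, Ngp and Lcn2 among its leading genes) together held most SCD neutrophils, with 33.2%, 20.7%, 15.2% and 12.0%. Within c0 Ccl6 was at 4617 and 3099 CPM, 1.49-fold lower in SCD (1.44 to 1.54). In the mature neutrophils of the other clusters (206 and 2668 cells) it was at 2018 and 2273 CPM, 1.13-fold higher (1.08 to 1.18). The direction within mature neutrophils thus depended on the cluster.

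Ccl3, Ccl4 and Cxcl2, transcripts that neutrophils and macrophages induce on activation, were each found in few neutrophils. Ccl3 stood at 26.4 CPM (23.3 to 29.8, 259 UMIs in 154 cells) in wild-type mature neutrophils and 4.18 (3.13 to 5.47, 53 UMIs in 34 cells) in SCD. Ccl4 was at 32.0 CPM (314 UMIs in 163 cells) and 6.86 (87 UMIs in 24 cells). Cxcl2 was at 33.1 CPM (325 UMIs in 87 cells) and 12.8 (162 UMIs in 40 cells), 2.59-fold lower, a log2 ratio of -1.10 that was -0.63 with scaling by the median ratio of genes and -0.25 with cells thinned to 1000 UMIs. At 1000 UMIs a cell, Ccl3 was found in 2.22% of wild-type and 0.473% of SCD mature neutrophils, and in 0 of 91 wild-type and 0 of 125 SCD erythroid-like cells, which should lack it and which allow shares of up to 3.30% and 2.40%. By level, the SCD values of Ccl3 and Ccl4 lay within the erythroid-like intervals, whose upper bounds in SCD were 8.94 and 10.8 CPM, and the wild-type values above those of wild-type, 8.65 and 13.6, so both were lower in SCD and no fold was read. None of the 3 genes reached the minimum of 50 CPM in neutrophils as a class, so none enters the counts above.

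Inside cluster c0 these differences were not seen in the same direction. Ccl3 was at 29.1 CPM in wild-type and 32.1 in SCD (ratio 1.10, 0.747 to 1.58). Ccl4 was at 35.0 and 71.7 CPM, 2.05-fold higher in SCD (1.57 to 2.64), and Cxcl2 at 36.4 and 117 CPM, 3.21-fold higher (2.59 to 3.96). In the other mature neutrophils all 3 genes were low in both libraries, with Ccl3 at 2.04 and 1.63 CPM, Ccl4 at 5.09 and 0.946 and Cxcl2 at 3.06 and 3.27. The SCD values in c0 rest on few cells, and no direction was read for Ccl4 there, since 1 cell held 39 of the 87 Ccl4 UMIs of SCD mature neutrophils, together with 11 Cxcl2 and 8 Ccl3 UMIs, and another cell held 36 of the 162 Cxcl2 UMIs.

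**Figure D3:**
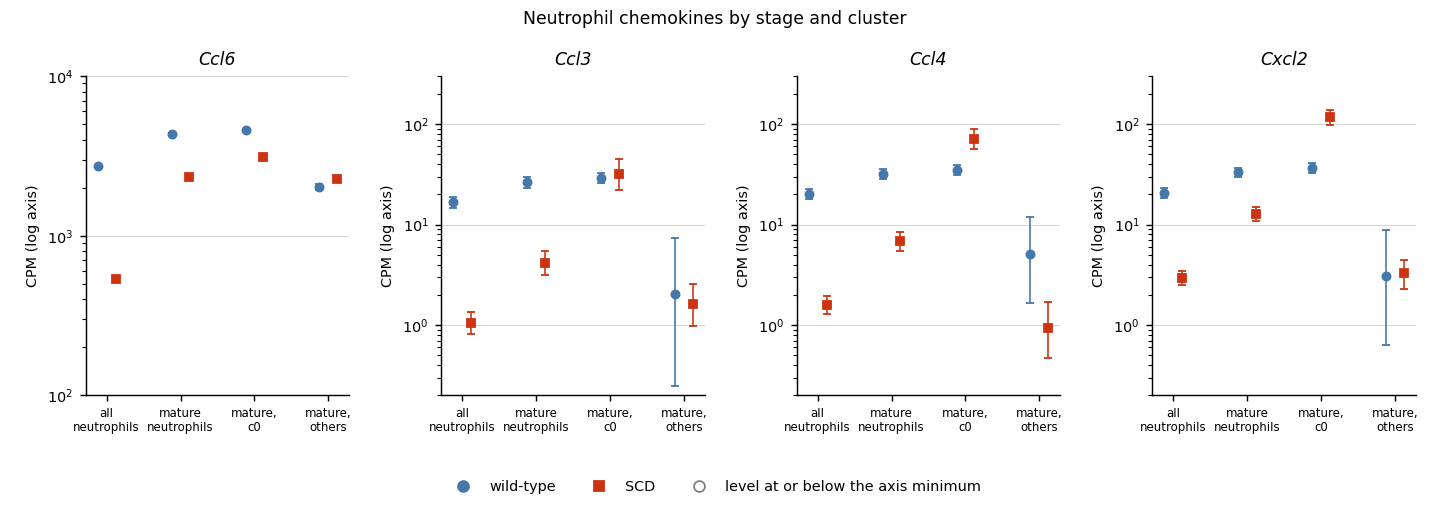
Levels of Ccl6, Ccl3, Ccl4 and Cxcl2 (CPM, log axis) in all neutrophils, mature neutrophils, mature neutrophils of cluster c0 and mature neutrophils of the other clusters, for the wild-type (circles) and SCD (squares) mouse, with 95% Poisson intervals. Cxcl2 is lower in SCD over mature neutrophils (33.1 and 12.8) and higher within c0 (36.4 and 117).

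Genes of the immediate early and stress response, which dissociation of tissue can induce, were also lower in SCD mature neutrophils. The summed level of the 29 genes of that list was 9808 CPM in wild-type and 3100 in SCD mature neutrophils. Of the 17 genes that passed the minimum 14 were at least 2-fold lower. The share of all genes was not counted in mature neutrophils, where the median log2 ratio was -1.27 for the list and -0.45 for all genes. Over all neutrophils 12 of 16 listed genes were at least 2-fold lower, beside 19.5% of 2486 genes. Within c0 the sum was 10578 and 7772 CPM, and in the other mature neutrophils 2880 and 2673. Their part in the chemokine levels was not tested. Cells with Ccl3 also held Ccl4 more often than other mature neutrophils did, 16.2% against 3.72% in wild-type and 17.6% against 0.573% in SCD, at median depths of 2351 against 2352 and 2427 against 3809 UMIs. Cxcl2 was found with Ccl3 in 8.44% of Ccl3-positive and 1.99% of Ccl3-negative wild-type cells, and in 20.6% and 1.05% in SCD.

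In monocytes Ccl3 had values on the other side. It was at 3.17 CPM (31 UMIs in 26 cells) in wild-type and 14.2 (12.3 to 16.2, 210 UMIs in 144 cells) in SCD. Erythroid-like cells were at 1.55 CPM (0.0393 to 8.65) and 2.47 (upper bound 8.94), so the wild-type monocytes were not above background by level and no fold was read, whereas the SCD monocytes were above it. At 1000 UMIs a cell, 0.678% of wild-type and 1.70% of SCD monocytes held Ccl3, both below the shares that 0 erythroid-like cells with the gene allow. Monocytes held 7.77% of all wild-type and 57.9% of all SCD Ccl3 UMIs. The stress genes did not share this direction, with a summed level of 6035 CPM in wild-type and 2842 in SCD monocytes. Of the 19 that passed the minimum 14 were at least 2-fold lower, beside 5.09% of 3396 genes. The monocyte clusters also differed: c8, led by Apoe and Cx3cr1, held 54.3% of wild-type and 12.4% of SCD monocytes, c12, led by Ace and Cd300e, 34.6% and 4.20%, and c7, led by Vcan and Fn1, 4.34% and 71.8%. In c7 Ccl3 was at 1.77 CPM (1 UMI in 45 cells) and 14.1 (144 UMIs in 804 cells). In c8 it gave 9 UMIs in wild-type and 16 (10.8 CPM) in SCD, and in c12 it was at 4.45 (10 UMIs) and 129 (37 UMIs). The SCD level was nominally higher in each of these 3 clusters, but the wild-type side rests on 1, 9 and 10 UMIs. No fold was read within a cluster, and in c8 the SCD level of 10.8 CPM from 16 UMIs was near the erythroid-like upper bound of 8.94. In the dividing cluster c20 Ccl3 was at 4.94 and 4.55 CPM from 2 and 13 UMIs.

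Ccl4, Cxcl2 and Cxcl9 in SCD monocytes came from single cells to a large part. Ccl4 was at 4.09 and 6.95 CPM, with 37 of the 103 SCD UMIs in 1 cell, and Cxcl2 at 0.716 and 3.24 CPM, with 29 of the 48 SCD UMIs in 1 cell. Both Ccl4 levels lay below the erythroid-like upper bounds given above for this gene, so Ccl4 was not read as above background in monocytes. Cxcl9 was at 1.74 CPM (17 UMIs in 12 cells) and 11.3 (168 UMIs in 5 cells), with 94 UMIs in 1 cell of c7 and 71 in 1 cell of c8. Without the cell of each library that held most UMIs of the gene, the log2 ratio went from 0.39 to 0.11 for Ccl4, from 0.53 to 0.19 for Cxcl2 and from 1.28 to 0.68 for Cxcl9, and from 1.23 to 1.23 for Ccl3.

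Ccl9, the other rodent CCR1 ligand, was mainly a monocyte transcript, with 68.9% of its wild-type and 72.0% of its SCD UMIs in these cells. It stood at 495 CPM (481 to 509) in wild-type and 691 (678 to 705) in SCD monocytes, 1.40-fold higher (1.35 to 1.45), and at 1000 UMIs a cell it was found in 33.1% and 47.2% of them. The clusters named above differed in level. Ccl9 was at 632 and 787 CPM in c7, 596 and 518 in c8, 234 and 255 in c12 and 343 and 483 in c20, so the SCD level was higher in 3 of these 4 clusters and lower in c8. Ccl6 in the same clusters was at 1008 and 1137 CPM in c7, 1561 and 970 in c8, 824 and 465 in c12 and 704 and 453 in c20, higher in SCD in c7 and lower in the other 3. Ccl6 and Ccl9 were the 2 members above the minimum in monocytes, and neither differed 2-fold, with 0 members lower and 0 higher. Of 3396 genes in monocytes, 5.09% were at least 2-fold lower and 2.15% at least 2-fold higher.

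Ccl6 and Ccl9 were also counted in cells that should not express them. In erythroid-like cells Ccl6 was at 301 CPM (260 to 347) and 188 (159 to 220), and Ccl9 at 21.7 (11.9 to 36.4) and 47.0 (33.3 to 64.5). Ccl6 in cDC1s (99.5 CPM in wild-type and an interval of 42.1 to 58.8 in SCD), cDC2s (30.4 and 45.4), mature DCs (43.6 and 44.5) and pDCs (111 and 81.0) was below these values. In red pulp macrophages Ccl6 was at 367 (322 to 417) and 276 (228 to 331) CPM, and at 1000 UMIs a cell in 18.5% and 25.0% of cells, against 16.5% and 6.40% of erythroid-like cells. Ccl9 in pDCs was at 31.2 (27.7 to 35.0) and 58.3 (52.6 to 64.5) CPM and overlapped the erythroid-like interval in both libraries, but SCD B cell-like cells were at 4.80 (2.30 to 8.82), so whether Ccl9 in SCD pDCs lay above background cannot be told. B cell-like cells held Ccl6 at 172 CPM (119 to 242) and 70.5 (59.6 to 82.9). The Ccl6 levels of DC subtypes and pDCs were read as background. In red pulp macrophages the level was above that of B cell-like cells in both libraries and the share above that of erythroid-like cells in SCD, so the wild-type reading depends on which cells are taken as background. Ccl9 stood clearly above the erythroid-like level in a sub-cluster of the DCs called DC-c5, led by Clec10a, Ccr2, Ccl9 itself and Mrc1, which was left without a subtype name because more of its leading genes were monocyte markers (Ccr2 and F13a1) than DC markers (Clec10a), with 527 CPM in 84 wild-type cells and 588 in 91 SCD cells (ratio 1.12, 0.995 to 1.25). In mature DCs it was at 77.3 (67.8 to 87.7) and 101 (72.9 to 136) CPM.

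Ccl5, which recruits T cells and monocytes, was the most abundant member of the DCs. Mature DCs, defined by Ccr7 and Fscn1, held 64.0% of Ccl5 UMIs in wild-type and 50.7% in SCD. Its level there was 8383 CPM in wild-type (8281 to 8485, 509 cells) and 6632 in SCD (6390 to 6881, 68 cells), 1.26-fold lower (1.22 to 1.31). At 1000 UMIs a cell, 82.9% and 80.6% of mature DCs held Ccl5. In cDC2s it was at 606 (592 to 621) and 633 (595 to 673) CPM, a ratio of 1.04 (0.977 to 1.12), and in 36.8% and 34.3% of the thinned cells. Under the alternatives the log2 ratio ran from -0.62 with cells named by marker score to 0.42 at resolution 2, which left 37 SCD cDC2s, so its direction depended on the processing. In cDC1s it was at 13.6 and 4.51 CPM. Over all conventional DCs Ccl5 was 2.70-fold lower (1721 and 639 CPM), a larger difference than within mature DCs or cDC2s. Mature DCs and cDC2s numbered 509 and 1338 of 2649 DCs in wild-type and 68 and 210 of 715 in SCD. In the DCs without a subtype name, whose sub-clusters were led in part by neutrophil genes (Camp, Ngp and Csf3r) or monocyte genes (Ace, Fn1 and Vcan), Ccl5 was at 1035 and 381 CPM. cDC2s of the 2 libraries lay in different sub-clusters, 42.8% of wild-type ones in DC-c0 (led by Ppp1r14a and Cd22) and 37.6% in DC-c1 (Mmp12, Egr1 and Cd4), and 82.9% of SCD ones in DC-c4 (Ifitm1 and Slc14a1). Ccl5 was at 552 CPM in wild-type DC-c0, 793 in wild-type DC-c1 and 700 in SCD DC-c4.

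Among mature DCs the sub-clusters differed in Ccl5 more than the libraries did. It was at 20665 and 13518 CPM in DC-c12 (led by Lta and Clu, with Ccl5 among its leading genes), 10268 and 7755 in DC-c15 (Gclc and Arhgap31, with Ccl22 among them), 18152 and 15706 in DC-c17 (Ccl22 itself and Insl6) and 3197 and 1910 in DC-c2 (Dkk2 and Crispld2), lower in SCD in each of these sub-clusters. The SCD values rest on 10 cells in DC-c12, 27 in DC-c15, 9 in DC-c17 and 16 in DC-c2. Mature DC sub-clusters DC-c19, also with Ccl5 among its leading genes, and DC-c21 held 1 and 5 SCD cells and were not compared. DC-c2 held 56.2% of wild-type and 23.5% of SCD mature DCs, and DC-c15 11.2% and 39.7%.

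Outside conventional DCs no Ccl5 level was clearly above background in both libraries. Erythroid-like cells were at 93.1 CPM (71.0 to 120) in wild-type and 3.71 (0.765 to 10.8) in SCD. Ccl5 was at 53.3 and 2.21 CPM in mature neutrophils, 23.2 and 2.16 in monocytes, 54.4 and 19.4 in pDCs and 106 (82.1 to 134) and 2.40 (0.0607 to 13.4) in red pulp macrophages. All of these were lower in SCD, as was the erythroid-like level, and none of the wild-type levels lay above the erythroid-like interval. The wild-type interval rested on 60 UMIs, 31 of them in 1 cell. Wild-type B cell-like cells held 0 Ccl5 UMIs (upper bound 19.3 CPM), and these wild-type levels lay above that. The wild-type reading thus depends on which cells are taken as background. The SCD level of pDCs lay above the SCD erythroid-like interval, but 107 of its 128 UMIs came from 1 cell. In conventional DCs 5 members passed the minimum, of which 1 (Ccl5) was at least 2-fold lower and 0 higher, where 3.74% and 1.93% of 3422 genes were. In pDCs 3 passed, of which 1 (Ccl5) was at least 2-fold lower and 0 higher, where 0.615% and 2.51% of 3579 genes were, and this call was lost when called doublets were removed (log2 ratio 0.42).

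Ccl22, the CCR4 ligand, had most of its UMIs in mature DCs (80.0% in wild-type and 55.9% in SCD), while Ccl17, which binds the same receptor, was barely detected. Ccl22 was at 89.8 CPM (79.6 to 101, 280 UMIs in 67 of 509 cells) in wild-type mature DCs and 267 (220 to 321, 114 UMIs in 27 of 68 cells) in SCD, 2.97-fold higher (2.37 to 3.71). At 1000 UMIs a cell it was found in 5.31% and 17.9% of them. Ccl22 was itself a leading gene of sub-clusters DC-c15 and DC-c17, which differed in direction. It was at 18.7 and 40.9 CPM in DC-c2, 300 (165 UMIs) and 474 (102 UMIs) in DC-c15, 1.58-fold higher (1.22 to 2.04), and 881 (73 UMIs) and 362 (8 UMIs) in DC-c17, and DC-c15 held the larger share of SCD mature DCs given above. In cDC1s Ccl22 gave 20 UMIs in 4 cells and 62 UMIs in 10 cells, with a single cell giving 17 UMIs in wild-type and another giving 28 in SCD, and no fold was read. Ccl17 gave 65 wild-type and 10 SCD UMIs over all kept cells. Of the wild-type ones, 45 lay in 1 cell of monocyte cluster c8, which also held 22 UMIs of the class II gene H2-Ab1, and 10 lay in mature DCs. SCD mature DCs held 0 Ccl17 UMIs, which allows up to 7.03 CPM (3 counts), so no difference in Ccl17 was detectable in these cells at this depth.

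Cxcl16 followed mature DCs as well. It was at 751 CPM (721 to 782) in wild-type and 937 (847 to 1033) in SCD mature DCs, 1.25-fold higher (1.12 to 1.39), at 110 (97.3 to 124) and 116 (104 to 129) in cDC1s, and at 4.15 and 3.73 in cDC2s. Its order of levels, mature DCs above cDC1s above cDC2s, was the same in both libraries. In the mature DC sub-clusters it was at 539 and 470 CPM in DC-c2, 1044 and 827 in DC-c12, 1072 and 1200 in DC-c15 and 941 and 1358 in DC-c17. Most mature DCs with Ccl22 held Cxcl16 too, 91.0% in wild-type and 92.6% in SCD, against 79.9% and 90.2% of those without Ccl22, at median depths of 7049 against 5551 UMIs in wild-type and 7135 against 5493 in SCD.

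Cxcl9 was the cDC1 member and the one with the largest difference within a named DC subtype among those above the minimum there. In cDC1s, which cross-present antigen to CD8 T cells, it stood at 445 CPM (419 to 472, 1113 UMIs in 75 of 162 cells) in wild-type and 116 (103 to 129, 333 UMIs in 43 of 206 cells) in SCD, 3.85-fold lower (3.40 to 4.37). At 1000 UMIs a cell, 17.4% of wild-type and 4.41% of SCD cDC1s held Cxcl9. Again the sub-clusters differed: DC-c13, led by Cd207 and Cd8a beside Cxcl9 itself, held 59.9% of wild-type and 4.85% of SCD cDC1s, and DC-c8, led by Itgae, Xcr1 and Clec9a, 3.09% and 64.6%. Within DC-c13 Cxcl9 was at 630 CPM (999 UMIs in 97 cells) and 1098 (150 UMIs in 10 cells), and 110 of the SCD UMIs were in 1 cell. In DC-c8 it was at 58.7 (1 UMI in 5 cells) and 102 CPM (179 UMIs in 133 cells), and in DC-c10, led by Crip1 and Ifi205, at 126 (113 UMIs, 96 of them in 1 cell) and 4.01 (4 UMIs). No direction was read inside DC-c13, since 1 cell held most of its SCD UMIs. Of 9 other interferon gamma targets, 3 passed the minimum in cDC1s and 0 of these differed 2-fold. The share of all genes was not counted in cDC1s, so nothing was read from this count. Over all conventional DCs 3 passed and 0 differed 2-fold, where 3.74% of 3422 genes were at least 2-fold lower and 1.93% higher. Below the minimum there, Gbp2 (27.6 and 5.57 CPM), Gbp4 (33.8 and 12.2) and Cxcl10 (23.4 and 5.31) were past 2-fold lower. Igtp, Irgm1 and Iigp1, also below it, were not past 2-fold. The count of those that passed thus leaves out targets that were lower, and no direction of the targets was read from it. In cDC1s the summed level of the 9 targets, 980 and 944 CPM, was mostly Ciita (751 and 731 CPM). Cxcl10, below the minimum, gave 20 UMIs in 6 wild-type cells (11 in 1 cell) and 10 UMIs in 3 SCD cells (5 in 1 cell). Its ratio, 2.30-fold lower (1.03 to 5.51), thus rests on few cells.

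**Figure D4:**
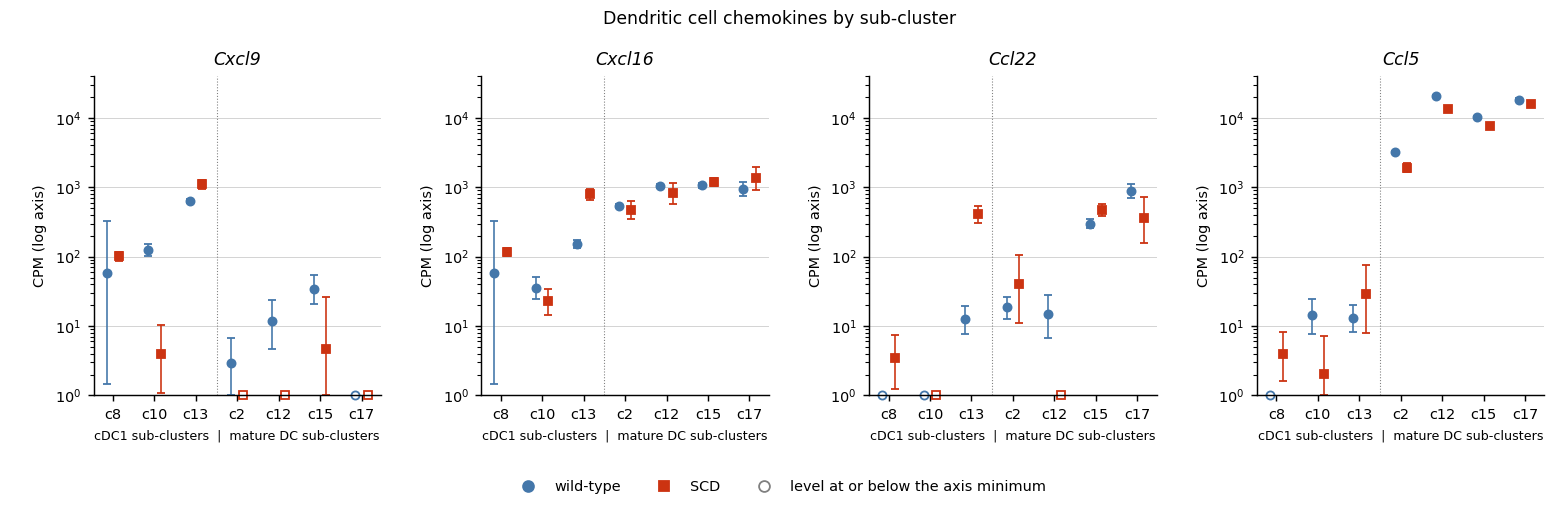
Levels of Cxcl9, Cxcl16, Ccl22 and Ccl5 (CPM, log axis) in 3 cDC1 and 4 mature DC sub-clusters of the wild-type (circles) and SCD (squares) mouse, with 95% Poisson intervals. Sub-cluster numbers are those of the text with DC- left out. Cxcl9 is highest in c13 in both libraries (630 and 1098), and Ccl5 is high in c12, c15 and c17 and lower in c2.

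Red pulp macrophages, which remove aged erythrocytes, held Ccl6 at 367 and 276 CPM, as given above, and less of the other members. Ccl5, Ccl6 and Cxcl9 passed the minimum, 2 of these (Ccl5 and Cxcl9) were at least 2-fold lower in SCD and 0 higher, where 5.96% and 3.07% of 3811 genes were. Of the 68 wild-type Ccl5 UMIs, 30 were in 1 cell. Cxcl9 was at 59.1 CPM (38 UMIs in 9 cells) and 7.19 (3 UMIs in 3 cells), and 23 of the wild-type UMIs were in 1 cell. The wild-type level lay above that of erythroid-like cells, 4.66 CPM (0.960 to 13.6), while its thinned share of 2.37% lay below the 3.30% that 0 of 91 erythroid-like cells allows.

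Of 26 other chemokine ligands, 0 passed the minimum in all kept cells, neutrophils, monocytes, conventional DCs or pDCs. In red pulp macrophages 1 of the 26 passed, Ccl24, a CCR3 ligand, at 71.5 CPM (46 UMIs) in wild-type and with 104 UMIs in SCD, 3.49-fold higher (2.44 to 5.05). Ccr3 in the same cells was at 1079 and 1010 CPM. Among receptors of the members, the CCR1 and CXCR2 genes passed in neutrophils, where both were at least 2-fold lower, beside the 19.5% of genes given above. Both were also at least 2-fold lower in red pulp macrophages (beside the 5.96% given above), but the wild-type levels there, 73.1 CPM for Ccr1 and 171 for Cxcr2, lay within the erythroid-like intervals (37.8 to 75.5 and 118 to 179) and were not read as expression. In mature neutrophils Ccr1 was at 972 and 496 CPM and Cxcr2, itself a marker used to name these cells, at 2380 and 1288. Ccl6 and its receptor Ccr1 were thus both lower there, where the median log2 ratio of all genes was -0.45. In the mature neutrophils outside cluster c0, however, Ccl6 was 1.13-fold higher in SCD. In monocytes Ccr1 passed, at 40.3 CPM in wild-type, which was not above the erythroid-like level, and 79.5 in SCD, where that level was 17.3. In pDCs Cxcr3 passed, at 65.4 and 41.4 CPM, with 0 UMIs in erythroid-like cells, and it was not past 2-fold.

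For each member the genes outside the chemokine family with the most similar pattern were sought over 18 points, 9 cell types in 2 libraries, by Pearson's r of log2 levels. Points of 1 library share its depth and cell types recur in both, so r is a description. Ccl22 was most like Mab21l3 (0.98) and Il12b (0.97), the interleukin 12 subunit, Ccl5 most like Ryr3 (0.97) and Il4i1 (0.96), Cxcl16 most like Arpin (0.96) and Apol7c (0.95), and Ccl6 most like Clec7a (0.97) and Fxyd5 (0.94). Cxcl2 was most like Steap4 (0.91), Cxcl9 like Gpr141b (0.91), Ccl9 like Nupr1 (0.89), Ccl3 like Supt4a (0.84) and Ccl4 like Ptgs2 (0.82), the inducible cyclooxygenase. Between members r was 0.93 for Ccl22 and Cxcl16, 0.78 for Ccl4 and Cxcl2, and 0.72 for Ccl6 and Cxcl2.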

How the data were processed

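The authors aligned and counted reads with Cell Ranger 4.0.0 on GRCm38.p6, per the labels, and deposited the resulting UMI counts as raw values for 1 library per group. No column of other samples was present. The members, lists and tests were chosen with earlier results of these data known. All 10 members were named, and 1 receptor gene is not reported here. Kept cells had 500 to 5000 genes, less than 15% of counts from mitochondrial genes and less than 30% from ribosomal ones. Counts were scaled (scran 1.30.0, R 4.3.3), and cells were clustered on 2000 variable genes without chemokine ligands (30 components, 15 neighbours, Leiden resolution 1; scanpy 1.11.5, leidenalg 0.10.2, Python 3.11.15). Clusters were named from marker lists, and DCs were clustered again. UMIs were summed per library and type as CPM. Members with 50 CPM and 20 UMIs in 1 library were counted at 2-fold. Cells were thinned to 1000 UMIs for shares. Doublets were called per library with Scrublet and kept in. Alternatives covered scaling, clustering, naming, filters, doublets, pseudocounts, thinning and the cell richest in each member. Scripts were tested on simulated data.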

Additional observations from a re-analysis of the deposited data

Results flagged for a closer look

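The log2 ratio (SCD over wild-type) of Ccl3 was -1.84 in neutrophils and 1.23 in monocytes, opposite directions in 2 cell types of the same animals. Neither ratio stands firmly: Ccl3 in wild-type monocytes and in SCD neutrophils was not above the level of erythroid-like cells, immature cells were 491 of 4357 wild-type and 3981 of 7156 SCD neutrophils, and within neutrophil cluster c0 the ratio was 1.10 (0.747 to 1.58). Cxcl9 had -2.39 in red pulp macrophages and 1.28 in monocytes, from 38 and 3 UMIs and from 17 and 168 UMIs. With 1 animal per group neither difference between cell types was tested.

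Cells outside the filters held some members at a higher and others at a lower level in the SCD library. In the 517 wild-type and 1436 SCD cells with more than 5000 genes, the ratio of SCD to wild-type CPM was 8.99 for Ccl3 (5 and 114 UMIs), 2.10 for Ccl4, 1.19 for Ccl6 and 6.33 for Ccl9 (451 and 7235 UMIs), while Ccl5 was 4.27-fold, Cxcl16 3.09-fold, Cxcl9 13.5-fold and Ccl17 2.25-fold lower. In the other 905 and 1376 cells left out, it was 2.48 for Ccl9 and 9.67 for Cxcl2 (1 and 15 UMIs, interval 1.49 to 407, with 14 UMIs in 1 cell), while Ccl5 was 4.51-fold, Cxcl9 5.09-fold and Ccl3 5.82-fold lower, the last from 15 and 4 UMIs and opposite to its ratio in the cells with more than 5000 genes. The cell types of these cells were not assigned, and what part their mix has in the ratios was not tested.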

How the results depend on the processing

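No paired analysis was possible because both groups consist of a single mouse. Of 638 log2 ratios of members under the alternatives, 619 kept their sign, and of 269 that belonged to ratios past 2-fold, 268 did, but 261 of the 638 and 132 of the 269 moved outside the counting interval. The exception was Ccl5 in pDCs, at 0.42 with called doublets removed. Of 168 counts of members past 2-fold, 150 stayed within 1.5 times. In neutrophils 2 members were lower with each library clustered on its own and with cells named by marker score, and 5 with no minimum (1 in the report). In monocytes no minimum gave 2 lower and 2 higher (0 and 0). In conventional DCs 2 were lower with libraries clustered separately and with no upper limit on genes (1), and 1 was higher (Ccl9) with libraries clustered separately, doublets removed or cells thinned (0). In pDCs 0 were lower with doublets removed, a pseudocount of 20 CPM or thinning (1), and 1 was higher (Ccl9) at resolution 2 or with no upper limit (0). In red pulp macrophages 1 was lower with at least 1000 genes per cell or thinning (2), and 2 were higher with no mitochondrial and ribosomal filter (0). The cause was not tested. Scaling by the median ratio of genes, which differed by -0.41 (log2) over all kept cells, gave the same counts in all 6 comparisons. The log2 ratio ranged from -2.35 to -1.71 for Ccl6 in neutrophils, from 1.13 to 1.97 for Ccl22 in mature DCs, from -2.38 to -1.72 for Cxcl9 in cDC1s and from 0.56 to 1.86 for Ccl3 in monocytes. Leaving out the richest cell was chosen after seeing the data. Members below 50 CPM, and red pulp macrophages with a median near 1337 UMIs, are limited by depth.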

Other observations

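Ccl17 lay mostly outside the cells analysed. The cells with more than 5000 genes held 140 wild-type and 158 SCD Ccl17 UMIs, in 74 of 517 and 78 of 1436 cells and with at most 8 in 1 cell, against 65 and 10 UMIs in all kept cells. Its level in these cells was 4.22 CPM (3.55 to 4.98) and 1.88 (1.60 to 2.20), lower in SCD. Cxcl9 was likewise present there, at 8.02 and 0.595 CPM, but 10 cells held 86.1% of its wild-type and 84.0% of its SCD UMIs.

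Cxcl10, an interferon-induced CXCR3 ligand like Cxcl9, passed the minimum in the DCs without a subtype name, at 63.9 CPM (412 UMIs in 24 cells, 99 of them in 1 cell) in wild-type and 10.7 (30 UMIs in 5 cells) in SCD. These cells are a mixed set, with sub-clusters led by neutrophil genes (DC-c7 by Cxcr2, DC-c14 by Camp and Ngp) or monocyte genes (DC-c9 by Ace and Csf1r, DC-c20 by Fn1). Sub-cluster DC-c3, led by Cxcl10 and by the neutrophil granule genes Elane, Mpo and Prtn3, held 28.0% of them in wild-type and 10.4% in SCD. Cxcl9 in the DCs without a subtype name was at 128 CPM (825 UMIs in 50 of 640 cells) and 7.86 (22 UMIs in 12 of 231 cells). Called doublets made up 23.9% and 5.19% of these DCs, and the part of doublets and sub-clusters in the difference was not tested. In monocytes Cxcl10, below the minimum, was at 10.3 and 17.4 CPM, higher in SCD. Few cells carried it: 10 cells held 63.4% of the 101 wild-type UMIs and 79.8% of the 258 SCD UMIs, with 26 and 47 in 1 cell.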
